A study of Mus musculus with 6 samples.

Results

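Genes that drive cells into mitosis, build and move the spindle and divide the cell were compared between splenic T cell preparations of mice lacking miR-142 and of wild-type littermates. The set was a list of 43 genes encoding mitotic cyclins, kinases and phosphatases, kinesin motors, spindle proteins, condensin subunits and cytokinesis factors, together with the proliferation markers Mki67 and Top2a. A gene entered through the probe sets that the platform annotation assigns to it alone. The brightest of these, averaged across all 6 arrays, represented it. This mean includes the arrays of mice lacking miR-142, so the choice can favour probe sets that are high in them. For Cit, Cdc25c and Smc4 another probe set was brighter on the wild-type arrays. Of the 43 genes 42 were measured, out of 18193 genes in all, and Ccnb1 was not analysed here. RNA came from T cells that were enriched by removing other cells from the spleens of individual male C57BL/6 mice aged 10 weeks, 3 miR-142 knockouts (KO) and 3 wild-type animals (WT), and was hybridized to Affymetrix 1-colour arrays, 1 animal an array. miR-142 is a microRNA of the blood lineages. The sources used here do not give the deleted bases or say whether any cell type retains the locus. Values are log2 probe-set intensities as deposited, so that a difference of 1 is a 2-fold change and differences are KO minus WT.

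Entry into mitosis is driven by the kinase Cdk1 bound to B-type cyclins, which Cdc25 phosphatases activate by removing inhibitory phosphates and which the Polo and Aurora kinases assist. Kinesins then separate the poles and move the chromosomes, condensin compacts the chromatin, and centralspindlin recruits the RhoA activator Ect2 to place the contractile ring. In resting lymphocytes most of these genes are kept low by the DREAM repressor complex, which binds a promoter sequence called the cell cycle genes homology region (CHR), while in cycling cells B-Myb and FoxM1 activate them, often together with the factor NF-Y at a nearby CCAAT box. Transcripts of this set peak late in the cell cycle and are widely used as a measure of dividing cells.

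The Mir142 transcript, from which the microRNA is cut, had log2 intensities of 7.93, 8.13 and 7.67 in WT and 5.97, 5.88 and 5.90 in KO. It checks the labels only if its probes lie in the deleted part, which was not known here. Of 45037 probe sets 29.4% passed the threshold, an adjusted p below 0.05 in limma, which is what rose, fell and changed stand for. Among cell type markers, the 9 T cell genes measured all fell, against 18.6% of all genes. Their mean was 12.05 to 12.08 on the WT arrays and 9.21 to 10.65 on the KO arrays. All of these means lay above the array medians of 5.70 to 5.77. Markers of several other blood lineages rose in KO. Their list means ran from 6.11 to 7.29 in WT and from 10.02 to 13.02 in KO for neutrophils, and from 7.48 to 7.86 and from 9.89 to 10.83 for erythroid cells. The progenitor list had means of 6.99 to 7.07 in WT and 10.15 to 10.23 in KO. In such mixed preparations a change in the number of cells of a type and a change in RNA per cell cannot be told apart. KO replicate 1 stood apart in its 18S ribosomal controls, at 7.86 against 9.15 and 9.19 in the other KO arrays. For Actb, the 3' control exceeded the 5' control by 0.16 to 0.23 in WT and by 0.32 to 0.40 in KO, a gap that widens when RNA is degraded. Whether these differences enter the values of the mitotic genes was not tested.

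Of the 42 mitotic genes 39 rose in KO, 0 fell and 3 did not pass the threshold. Among all 18193 genes 18.6% rose, and likewise 18.6% fell. The median log2 difference of the mitotic genes was 2.13, with quartiles of 1.63 and 2.36, against -0.06 over all genes. On average the set stood at 8.22, 8.14 and 8.31 on the WT arrays and at 10.03, 10.39 and 9.91 on the KO arrays, so that the groups lay far apart relative to the spread within each. For 39 of the 42 genes the lowest KO value exceeded the highest WT value, which held for 24.1% of all genes. At least 4-fold rises were seen for 25 of the 42, against 3.37% of all genes. The functional classes had median differences of 2.29 for the 2 chromosome structure genes, 2.23 for the 9 cyclins, kinases and phosphatases, 1.62 for the 11 kinesins, 2.19 for the 9 spindle proteins, 2.04 for the 5 cytokinesis genes and 1.91 for the 6 condensin subunits. Spindle proteins ranged from 1.38 to 2.68, and cytokinesis genes from 0.49 to 3.54.

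**Figure D1:**
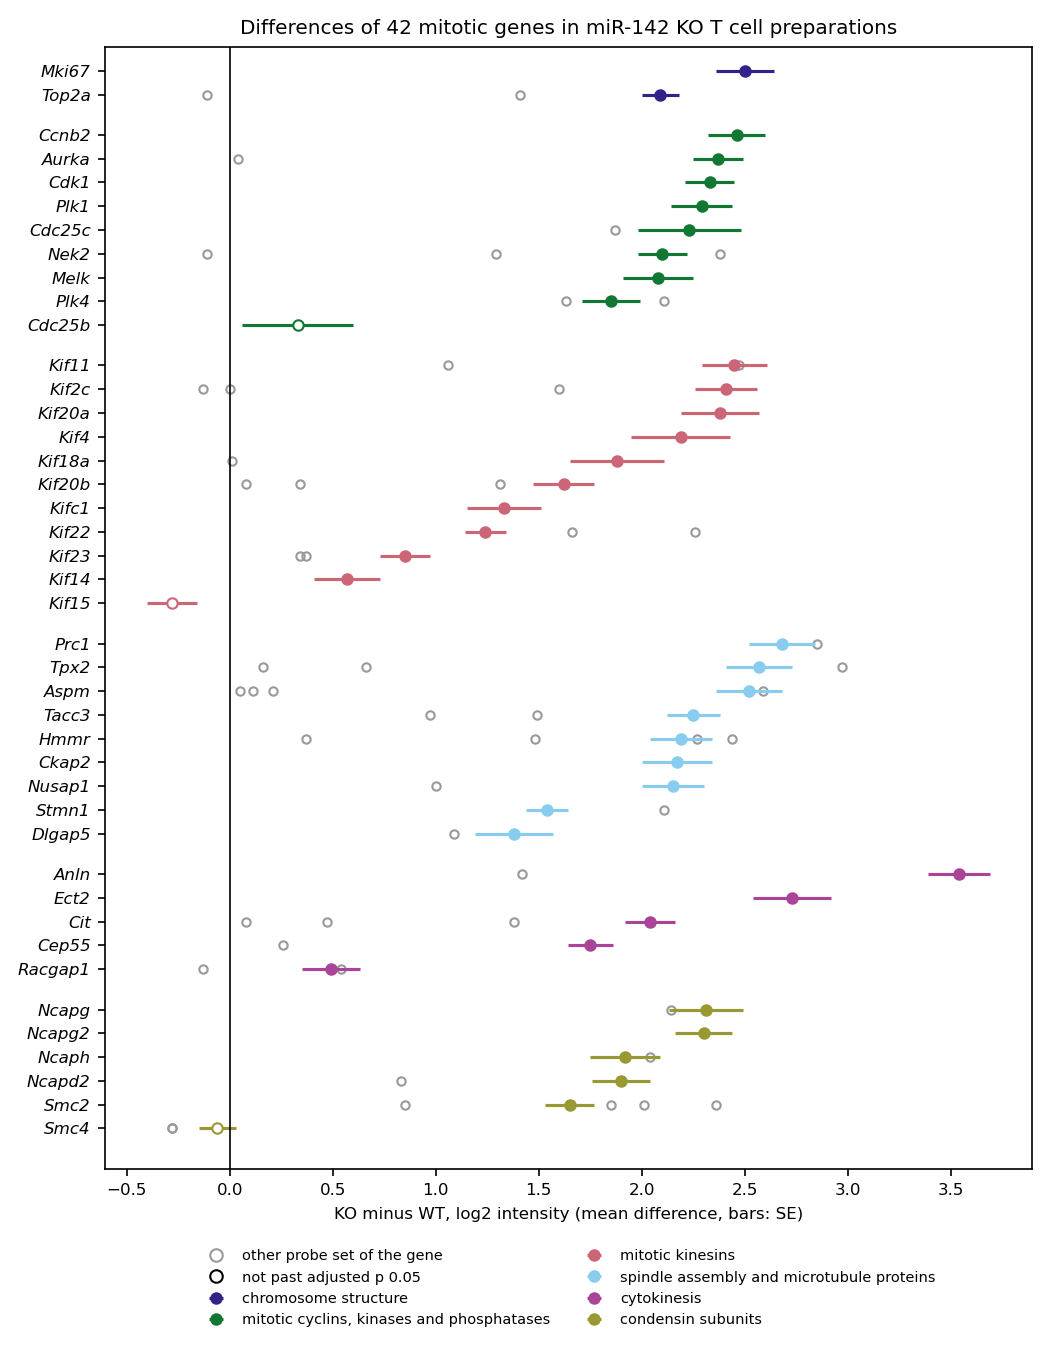
Difference between KO and WT (horizontal axis, log2 intensity, bars show the moderated SE, n = 3 per group) for each of the 42 mitotic genes, ordered by size within each functional class. Open grey circles are the other probe sets of the same gene; filled points passed the threshold, and most of them lie between 1.5 and 2.7, with Anln at 3.54 beyond the rest and Cdc25b, Kif15 and Smc4 drawn open.

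The promoters of the genes that rose most are shown with the matches to the CHR and the CCAAT box, because these letters recur across the set. RefSeq promoter windows of 250 bases before and 50 bases after the transcript start (build GRCm38.p6) were matched for 36 of the 42 genes. The stretches below run 5′ to 3′ from 120 bases before to 30 bases after the start. Capitals mark TTTGAA or TTCGAA (CHR) and CCAAT (NF-Y box) on either strand, so that TTCAAA and ATTGG are the same motifs read on the opposite strand. For each functional class the gene with the largest rise among those with a window was taken, and Cdk1 and Kif15 were added after their values were seen, as a core mitotic kinase and as a gene that did not pass the threshold.
Mki67: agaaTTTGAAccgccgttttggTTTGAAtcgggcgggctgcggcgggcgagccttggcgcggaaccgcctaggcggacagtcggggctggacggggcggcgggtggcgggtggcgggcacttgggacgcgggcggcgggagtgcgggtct
Ccnb2: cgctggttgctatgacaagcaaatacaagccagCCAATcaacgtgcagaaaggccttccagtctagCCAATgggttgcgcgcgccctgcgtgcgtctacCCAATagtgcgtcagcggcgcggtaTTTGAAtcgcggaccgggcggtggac
Kif11: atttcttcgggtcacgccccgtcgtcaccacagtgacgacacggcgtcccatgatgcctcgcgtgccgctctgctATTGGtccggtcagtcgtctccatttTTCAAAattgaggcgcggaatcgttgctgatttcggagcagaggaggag
Prc1: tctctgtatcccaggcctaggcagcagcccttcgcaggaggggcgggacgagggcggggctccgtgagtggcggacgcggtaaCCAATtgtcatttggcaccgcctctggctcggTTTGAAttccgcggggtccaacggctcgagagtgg
Anln: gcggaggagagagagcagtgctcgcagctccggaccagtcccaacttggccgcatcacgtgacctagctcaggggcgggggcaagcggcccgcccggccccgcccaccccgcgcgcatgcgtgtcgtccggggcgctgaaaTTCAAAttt
Ncapg: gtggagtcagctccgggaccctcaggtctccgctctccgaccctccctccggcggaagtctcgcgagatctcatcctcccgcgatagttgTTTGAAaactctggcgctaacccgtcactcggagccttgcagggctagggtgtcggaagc
Cdk1: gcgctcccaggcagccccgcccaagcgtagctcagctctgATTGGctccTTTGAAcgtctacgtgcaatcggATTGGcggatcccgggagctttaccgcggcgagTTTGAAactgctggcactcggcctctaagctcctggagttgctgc
Kif15: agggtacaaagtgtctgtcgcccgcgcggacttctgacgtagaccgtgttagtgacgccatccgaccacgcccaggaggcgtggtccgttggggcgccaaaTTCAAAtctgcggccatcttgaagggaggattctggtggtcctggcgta
These are the stretches of Mki67 at chr7:135716350-135716499 (minus strand), Ccnb2 at chr9:70421525-70421674 (minus strand), Kif11 at chr19:37376262-37376411 (plus strand) and Prc1 at chr7:80294331-80294480 (plus strand), the latter from the upstream of its 2 annotated starts. The others are Anln at chr9:22389177-22389326 (minus strand), Ncapg at chr5:45669805-45669954 (plus strand), Cdk1 at chr10:69352883-69353032 (minus strand) and Kif15 at chr9:122950961-122951110 (plus strand). Ccnb2 shows 3 CCAAT boxes, which begin at bases -87, -54 and -21 relative to the start, and a CHR at base 5. In Kif11 a CCAAT box beginning at base -45 is followed by a CHR at base -19, and in Prc1 a box at base -37 by a CHR at base -5. Cdk1 has the same order at bases -48 and -15, with a further box and a CHR upstream. In Mki67 2 CHR matches lie at bases -116 and -98, and its 3 CCAAT boxes lie upstream of the stretch shown. Anln has CHR matches at bases 22 and 29, of which the second runs past the stretch shown, and no CCAAT box, and Ncapg a CHR at base -30. Kif15, which did not rise, holds a CHR at base -19.

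Over the 36 genes with a window, 28 (77.8%) held a CHR anywhere in it, against 17.5% of the 14452 genes measured on the arrays that have a window and 21.7% of all 27025 genes in the promoter table (19.2% of all 32851 windows). Within 50 bases of the start on either side the CHR was found in 23 of the 36 (63.9%), against 4.62% of the measured genes. A CCAAT box was found in 23 of 36 (63.9%), against 42% of the measured genes (37.4% of all windows), and a CHR beginning at most 50 bases downstream of a box in 17 of 36 (47.2%), against 1.88%. Letters of E2F sites, searched on both strands as TTCCCGC and in the variant forms TTGGCGC, then also TTCGCGC, and last of these TTGCCGC, were present in 12 of 36 (33.3%), against 16.0% of the measured genes (9.57% of all windows). In the members' windows 2 pairs of motifs of different kinds overlapped. Both are the same E2F match and CCAAT box of Ect2, counted once in each of its 2 windows. Among the 20 S phase genes with a window 60.0% held the E2F letters and 5% a CHR near the start. Of the 17 kinesin genes outside the set with a window 11.8% held a CHR near the start, and of 18 kinetochore, passenger and checkpoint genes 61.1%. The 28 mitotic genes with a CHR had a median log2 difference of 2.19, with a range from -0.28 to 3.54, and the 8 without had a median of 2.06, from 1.85 to 2.25. Among all 2794 measured genes that rose and have a window, 6.62% held a CHR near the start. These matches describe the letters only.

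**Figure D2:**
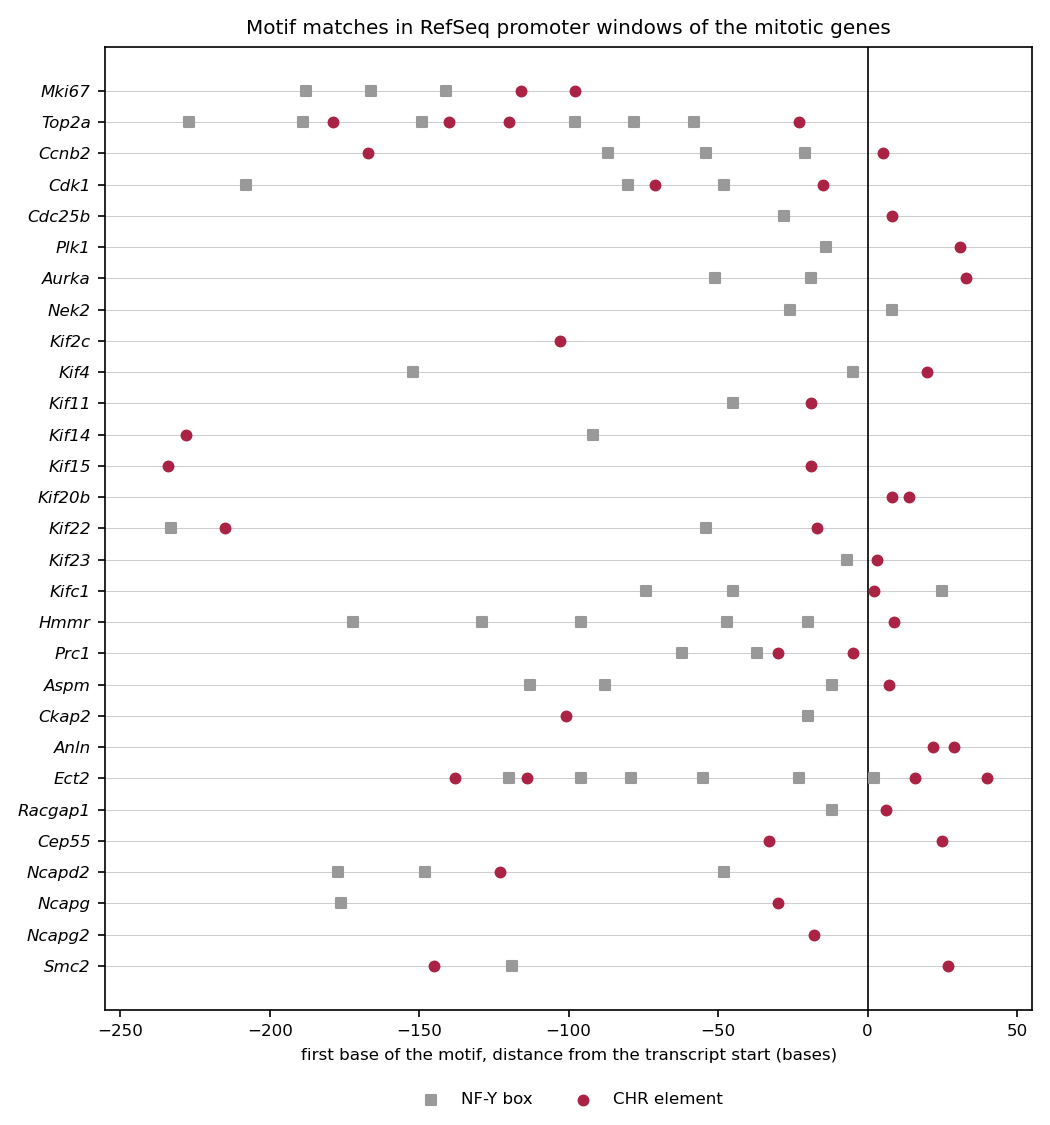
Positions of CHR (red circles) and NF-Y box matches (grey squares) relative to the transcript start (horizontal axis, bases) in the RefSeq windows of the mitotic genes that hold at least 1 of them, with both windows overlaid where a gene has 2. The red circles gather around the start, with grey squares mostly to their left, as in Ccnb2, Kif11, Prc1 and Racgap1.

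The proliferation markers rose. Mki67, the nuclear protein that coats mitotic chromosomes, had log2 intensities of 9.93, 9.76 and 9.78 in WT and 12.43, 12.53 and 12.02 in KO. All KO arrays lay more than 2 units above all WT arrays, and the difference was 2.50 ± 0.14 (SE, n = 3 per group, limma adjusted p = 4.9e-05), a 5.65-fold rise. Top2a, the topoisomerase that untangles sister DNA, read 9.96, 9.92 and 10.01 in WT and 12.08, 12.16 and 11.92 in KO, with little spread in either group. It rose 4.26-fold (2.09 ± 0.09, limma adjusted p = 2.1e-05).

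Among the genes of mitotic entry 8 of 9 rose. Ccnb2, a B-type cyclin that binds Cdk1, read 9.13, 9.03 and 9.07 in WT and 11.42, 11.84 and 11.34 in KO. The groups did not overlap and the gene rose 5.50-fold (2.46 ± 0.14, limma adjusted p = 4.7e-05). Aurka, the Aurora kinase of the spindle poles, read 7.55, 7.62 and 7.62 in WT and 9.82, 10.23 and 9.86 in KO, a 5.17-fold rise (2.37 ± 0.12, limma adjusted p = 3.5e-05). Cdk1, the kinase of mitotic entry, read 8.93, 8.83 and 8.99 in WT and 11.11, 11.50 and 11.12 in KO, a 5.01-fold rise (2.33 ± 0.12, limma adjusted p = 3.9e-05). In all 3 genes KO replicate 2 was the highest array, and the WT arrays lay closer together than the KO arrays. Plk1, the Polo kinase of mitosis, rose by 2.29, Cdc25c, a phosphatase that activates Cdk1, by 2.23, the centrosomal kinase Nek2 by 2.10, the kinase Melk by 2.08 and Plk4, which starts centriole duplication, by 1.85. Cdc25b, the other Cdc25 phosphatase of the set, is named with its values because it did not pass. It read 8.84, 8.76 and 9.02 in WT and 9.28, 9.75 and 8.57 in KO, where replicate 3 lay below every WT array. The difference was 0.33 ± 0.27 (limma adjusted p = 0.414), and it turned on single KO arrays: without KO replicate 3 it was 0.64 (limma adjusted p = 0.0348), and without KO replicate 2 it was 0.05 (limma adjusted p = 0.877).

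Of the 11 kinesins of mitosis 10 rose. Kif11, which pushes the spindle poles apart, read 7.75, 7.63 and 7.84 in WT and 9.97, 10.54 and 10.06 in KO, a 5.47-fold rise (2.45 ± 0.16, limma adjusted p = 7.0e-05). Kif2c, which depolymerizes microtubules at centromeres, read 7.62, 7.60 and 7.84 in WT and 10.14, 10.34 and 9.81 in KO, a 5.32-fold rise (2.41 ± 0.15, limma adjusted p = 5.8e-05). That probe set has the suffix _x_at, which marks possible cross-hybridization. Another Kif2c probe set, without it, rose 3.03-fold (limma adjusted p = 1.2e-04). A further one, at 6.96 to 7.07 in WT and 6.74 to 7.02 in KO, differed by -0.13 (limma adjusted p = 0.367). A dim one did not pass either. Averaging the Kif2c probe sets gave a rise of 0.97 (limma adjusted p = 2.6e-04). Kif20a, a motor of the central spindle, rose by 2.38, the chromokinesin Kif4 by 2.19, Kif18a, which dampens chromosome movements, by 1.88, Kif20b by 1.62, the minus-end motor Kifc1 by 1.33 and the chromokinesin Kif22 by 1.24. Smaller differences were seen for 3 kinesins, which were singled out after their values were seen. Kif23, the motor subunit of centralspindlin, read 8.89, 9.07 and 9.13 in WT and 9.92, 10.05 and 9.69 in KO and rose 1.81-fold (0.85 ± 0.12, limma adjusted p = 0.0017). The groups did not overlap, but 2 other probe sets of Kif23 differed by 0.37 and 0.34 and did not pass. Kif14, a kinesin of the midbody, was dim at 3.94, 3.72 and 4.01 in WT and 4.36, 4.78 and 4.25 in KO, below the median of all values, 5.74. It rose by 0.57 ± 0.16 (limma adjusted p = 0.0297), a call that was lost without WT replicate 1 (limma adjusted p = 0.0750), WT replicate 2 (0.104) or WT replicate 3 (0.0515). Kif15, which can share the work of Kif11, was dim as well and went slightly the other way, from 5.25, 5.24 and 5.16 in WT to 4.96, 4.73 and 5.15 in KO (-0.28 ± 0.12, limma adjusted p = 0.130). Kif14 and Kif15 had no further probe set.

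The 9 spindle and microtubule proteins all rose. Prc1, which bundles the microtubules of the central spindle, read 8.21, 8.10 and 8.39 in WT and 10.90, 11.21 and 10.64 in KO, a 6.41-fold rise (2.68 ± 0.16, limma adjusted p = 5.0e-05). Tpx2, which activates Aurka and nucleates spindle microtubules, read 7.68, 7.32 and 7.57 in WT and 10.05, 10.37 and 9.85 in KO, a 5.93-fold rise (2.57 ± 0.16, limma adjusted p = 5.7e-05). The lowest KO value of each lay more than 2 units above the highest WT value. Aspm, a spindle pole protein, rose by 2.52, Tacc3, which stabilizes spindle fibres, by 2.25, Hmmr by 2.19, Ckap2 by 2.17 and Nusap1, which bundles microtubules near chromosomes, by 2.15. Stmn1 (stathmin), which destabilizes microtubules, rose by 1.54 and Dlgap5 by 1.38. Stmn1 was among the brightest of the set, at 11.62 to 11.80 in WT and 13.14 to 13.40 in KO, and its dimmer probe set rose by 2.11.

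Among the cytokinesis genes were both the largest rise of the set and its smallest. Anln (anillin), the scaffold of the contractile ring, read 7.72, 7.45 and 7.89 in WT and 11.15, 11.47 and 11.07 in KO. It rose 11.7-fold (3.54 ± 0.15, limma adjusted p = 1.9e-05), more than 3 units between the nearest arrays of the groups, and ranked 108 by size of rise among all 18193 genes. A second, dim Anln probe set, at 4.25 to 5.21 in WT and 6.08 to 6.47 in KO, rose by 1.42. Ect2, the exchange factor that activates RhoA at the cell equator, read 8.26, 7.94 and 8.42 in WT and 10.82, 11.29 and 10.70 in KO, a 6.62-fold rise (2.73 ± 0.19, limma adjusted p = 8.7e-05). The midbody kinase Cit rose by 2.04 and Cep55, which recruits the abscission machinery to the midbody, by 1.75. Other Cit probe sets rose by 1.38 and 0.47. A further one, with the suffix _x_at, read 7.35 to 7.59 in WT and 7.52 to 7.61 in KO. It differed by 0.08 (limma adjusted p = 0.559). Averaging the Cit probe sets gave a rise of 0.99 (limma adjusted p = 1.9e-04). Racgap1, the partner of Kif23 in centralspindlin, was singled out after its values were seen: it read 9.18, 9.39 and 9.51 in WT and 9.79, 10.10 and 9.66 in KO. The groups lay close without overlapping, and the rise was 0.49 ± 0.14 (limma adjusted p = 0.0375). That call was lost without WT replicate 1 (limma adjusted p = 0.124), WT replicate 2 (0.0931), KO replicate 1 (0.0709) or KO replicate 2 (0.0682). Averaging the Racgap1 probe sets lost it too (0.30, limma adjusted p = 0.0656). Of its other probe sets 1 rose by 0.54 (limma adjusted p = 0.0136), and a dim one differed by -0.13 (limma adjusted p = 0.359). Within each array the level of Ect2 relative to Racgap1 changed from -0.92, -1.46 and -1.09 in WT to 1.02, 1.20 and 1.04 in KO, a difference of 2.24 on the log2 scale. The 3 against 3 arrays allow an exact two-sided permutation p of no less than 0.1. This pair was chosen after its values were seen, and the KO ratios lay above the WT ratios on every array. With the groups so separated, its exact permutation p could only be 0.1, so the test adds no support. Ect2 relative to Kif23 (1.87) and Anln relative to Racgap1 (3.06) were picked in the same way and had the same p.

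Of the 6 condensin subunits 5 rose. Ncapg, a regulatory subunit of condensin I, read 6.89, 6.71 and 7.19 in WT and 9.11, 9.58 and 9.03 in KO, a 4.96-fold rise (2.31 ± 0.18, limma adjusted p = 1.4e-04). Ncapg2, its counterpart in condensin II, read 8.76, 8.66 and 8.74 in WT and 10.91, 11.33 and 10.81 in KO, a 4.91-fold rise (2.30 ± 0.14, limma adjusted p = 5.8e-05). For both the lowest KO array lay well above the highest WT array. Ncaph followed by 1.92, Ncapd2 by 1.90 and the ATPase Smc2 by 1.65. Smc4, the ATPase that pairs with Smc2 in both complexes, is named because it did not pass: it read 12.63, 12.59 and 12.43 in WT and 12.46, 12.57 and 12.44 in KO. The groups overlapped (-0.06 ± 0.09, limma adjusted p = 0.667), and its other probe sets differed by -0.28 and -0.28 and did not pass either. Smc2 relative to Smc4 changed by 1.71 on the log2 scale between the genotypes, from -2.70, -2.82 and -2.48 to -0.90, -0.85 and -1.12. This pair was likewise chosen after its values were seen. Its exact permutation p of 0.1 was again the only value that such separated groups can give, and adds no support.

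**Figure D3:**
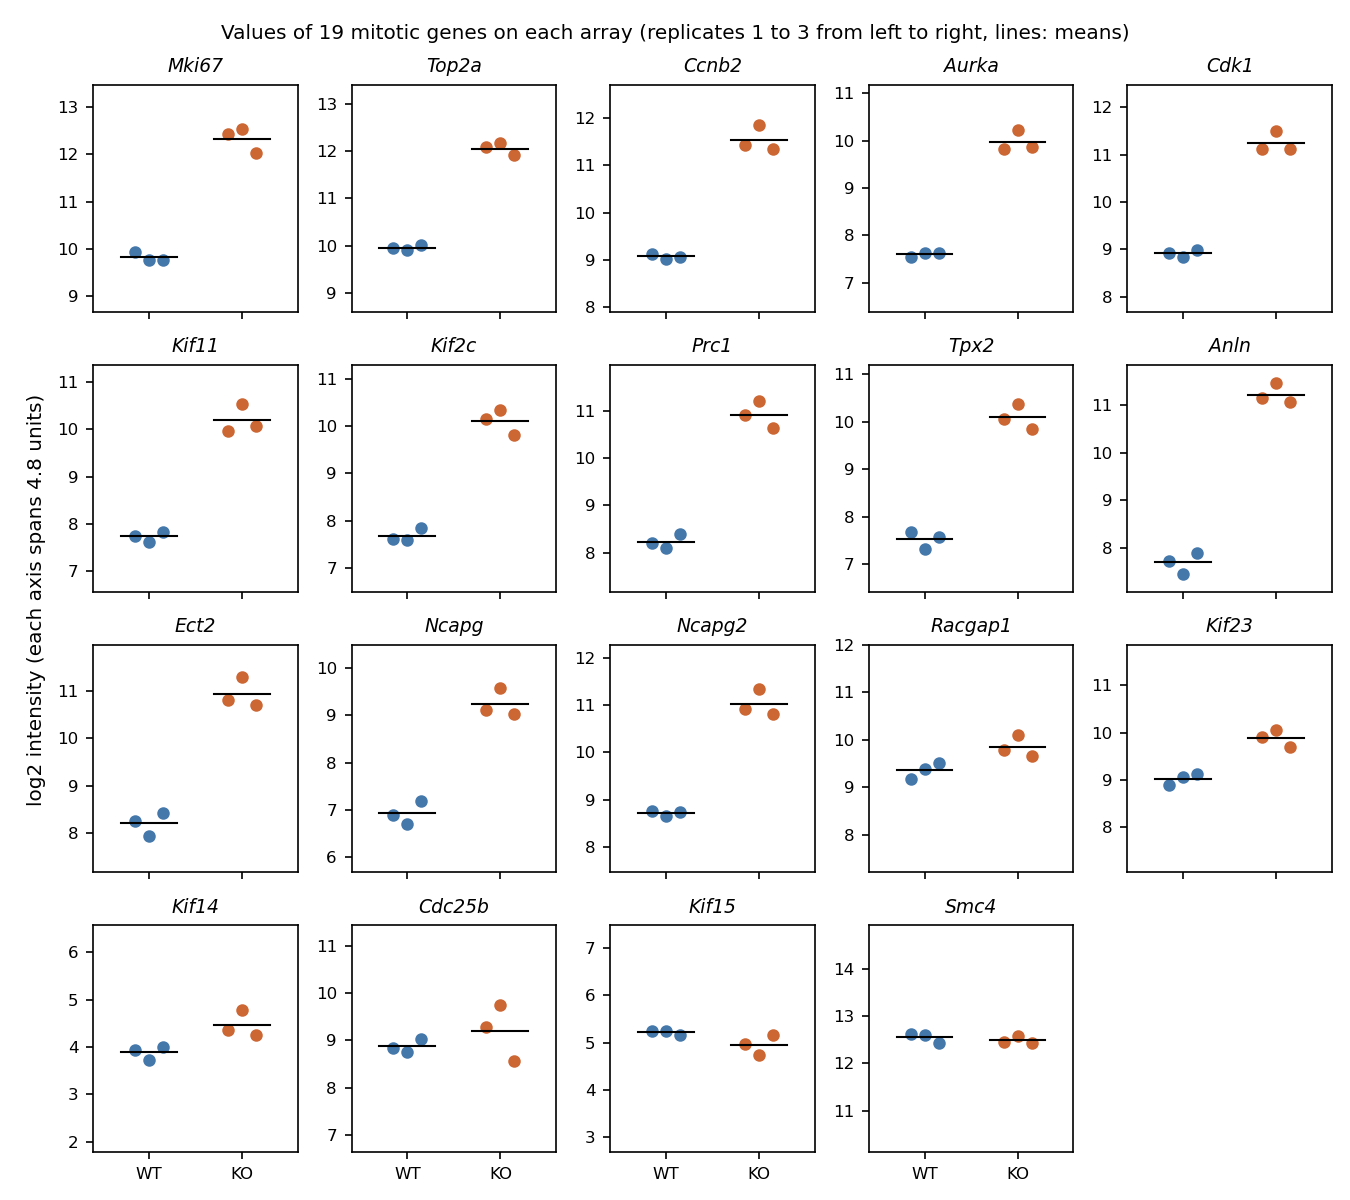
Log2 intensities of 19 mitotic genes on each array (WT blue, KO orange, replicates 1 to 3 from left to right, lines are group means), on axes of equal span. From Mki67 to Ncapg2 the groups lie more than 1.5 units apart, Racgap1, Kif23 and Kif14 show narrow gaps, and Cdc25b and Smc4 overlap between groups.

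The other probe sets of these genes were compared in the same fit. Of 55 further probe sets for 28 of the genes 35 rose, 0 fell and 20 did not pass, against 13.9% of all probe sets that rose. For 9 of the 42 genes the representing probe set has a suffix (_s_at or _x_at) that marks possible cross-hybridization. For 8 of these 9 another probe set without the suffix rose as well, the exception being Kifc1, which has none.

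Among the KO arrays the mitotic genes varied together. KO replicate 2 held the highest KO value for 39 of the 42 genes, against 44.8% of all genes, and KO replicate 3 the lowest for 30. The median excess of KO replicate 2 over the mean of the other KO arrays was 0.45 log2 units, against 0.04 over all genes. It ranged from -0.32 for Kif15 to 0.85 for Cdc25c, with Cep55 at -0.06 and Stmn1 at 0.01. KO replicate 2 was also highest for 25 of 25 S phase genes and for 11 of 11 erythroid markers, whose mean was 10.83 there against 10.28 and 9.89. It had the highest B cell mean, 8.67 against 7.36 and 6.77, and the highest megakaryocyte and platelet mean, 8.01 against 7.75 and 7.56. KO replicate 2 had the lowest means of T cell markers, 9.21 against 10.45 and 10.65, and of neutrophil markers, 10.02 against 13.02 and 10.72. It was also lowest for monocytes and macrophages, 9.15 against 10.25 and 9.38, and for mast cells, basophils and eosinophils, 9.65 against 10.14 and 9.80. Plasma cell markers read 9.14 there against 9.31 and 9.29. The mean of the progenitor markers was 10.23, 10.15 and 10.16 on the KO arrays. KO replicate 2 was the highest KO array for 1 of these 8 markers, Erg, at 9.41, 10.97 and 9.53. Cd34, where it was not the highest, read 11.07, 10.29 and 10.91. The part of these cells in the mitotic signal was not tested. Without KO replicate 2, 38 mitotic genes rose with a median of 1.96, and without KO replicate 1, 38 rose with a median of 2.18. Of the other marker lists, plasma cells had means of 8.42 to 9.34 in WT and 9.14 to 9.31 in KO. The means were 5.77 to 6.09 and 7.56 to 8.01 for megakaryocytes and platelets, 6.44 to 6.91 and 9.15 to 10.25 for monocytes and macrophages, and 5.93 to 6.06 and 9.65 to 10.14 for mast cells, basophils and eosinophils. Counting members, 10 of 11 erythroid, 8 of 8 progenitor, 9 of 11 neutrophil and 11 of 12 mast cell, basophil and eosinophil markers rose. So did 6 of 8 monocyte and macrophage, 5 of 5 megakaryocyte, 2 of 8 B cell and 2 of 6 plasma cell markers. Among all genes 18.6% rose, and the B cell (25%) and plasma cell (33.3%) shares lay nearest to that. In each of the erythroid, monocyte and plasma cell lists 1 marker fell. RMA values have no zero, so no marker could be called absent.

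**Figure D4:**
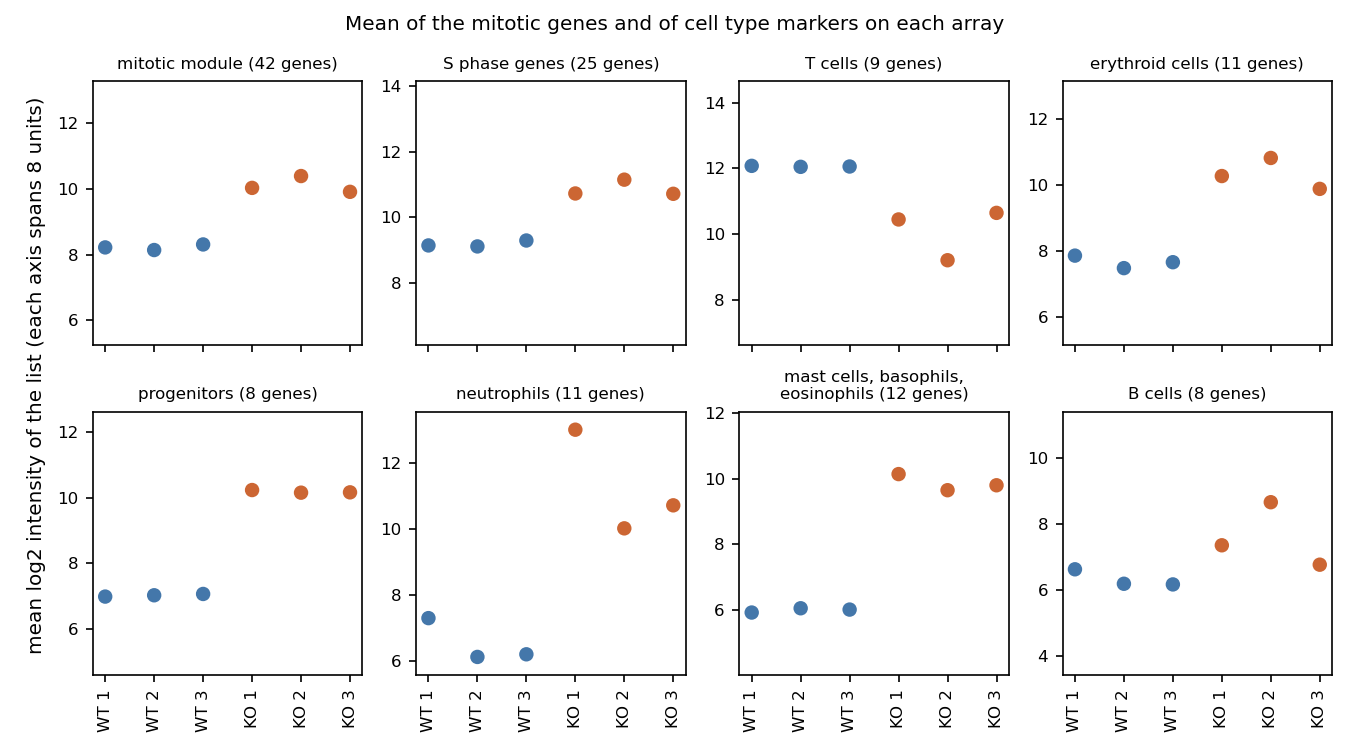
Mean log2 intensity of the mitotic genes, of S phase genes and of cell type marker lists on each of the 6 arrays (WT blue, KO orange), on axes of equal span. The mitotic mean runs from 8.14 to 8.31 in WT and from 9.91 to 10.39 in KO. KO 2 is highest among KO arrays for mitotic, S phase, erythroid and B cell genes. It is lowest for T cells, for neutrophils and for mast cells, basophils and eosinophils, and barely so for progenitors.

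Related genes outside the set were taken from lists by function. Beside them stand the 18.6% of all genes that rose and the 18.6% that fell. Of 22 kinetochore, chromosomal passenger and checkpoint genes 20 rose, with a median log2 difference of 2.25, led by Aurkb, the kinase of the passenger complex, by 2.88, the kinetochore protein Cenpf by 2.76 and the checkpoint kinase Ttk by 2.69. Of 17 other mitotic kinases, phosphatases and partners 11 rose and 2 fell (median 1.02). Pbk rose by 2.73, the S and G2 phase cyclin Ccna2 by 2.53 and Ccnf by 2.30, while Nek7 and Nek9 fell by 0.69 and 0.44 (both picked because they fell). In the anaphase promoting complex and securin axis 10 of 13 rose (median 0.64), with the separase Espl1 higher by 2.41, the ubiquitin-conjugating enzyme Ube2c by 2.23 and the activator Cdc20 by 2.03. Its falling gene was Pttg1, the securin that holds separase inactive, picked because it fell. It read 12.14, 12.31 and 12.38 in WT and 11.36, 11.28 and 11.24 in KO and fell by 0.99 (limma adjusted p = 3.2e-04), with no overlap between groups and in the direction opposite to Espl1. The Pttg1 probe set has the suffix _s_at, which marks possible cross-hybridization, and no other probe set of Pttg1 is described here. All 25 S phase genes rose, with a median of 1.47, among them Ccne2 by 3.24, Cdc6 by 2.67 and Tk1 by 2.62.

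Motors and complexes that share a family with the set, several with work outside mitosis, had medians near 0. Among all genes 18.6% rose and 18.6% fell. Of 21 kinesin heavy chains outside the set 4 (19%) rose, near that share, and 8 fell. Their median was -0.01. Kif21b fell by 1.78 and Kif5c by 1.34, whereas Kif13a rose by 2.34. Of 12 condensin II and cohesin genes outside the set 4 rose and 0 fell (median 0.17). Cdca5 (sororin), which protects cohesion until anaphase, rose by 2.37, the condensin II subunit Ncapd3 by 0.69 and the cohesin ATPase Smc3 by 0.53. Of 10 measured genes of the RhoA pathway and abscission 3 rose and 2 fell (median -0.14): Myh10, a non-muscle myosin, rose by 2.51, Shcbp1, a midbody protein, by 2.09 and Arhgap19 by 2.04. Regulators of mitotic transcription were divided, 9 of 18 rising and 4 falling. The repressors E2f7 and E2f8 rose by 3.30 and 2.93, and Mybl2 (B-Myb), an activator of genes with a CHR, rose by 2.58 from 6.24, 6.22 and 5.83 in WT to 8.56, 9.04 and 8.43 in KO. Foxm1, the other activator, is added for its role and rose by 0.41 (limma adjusted p = 0.0373). Rbl2, the pocket protein of DREAM in resting cells, fell by 0.71. The other falling genes were E2f5 by 0.83, Lin52 by 0.44 and Lin37 by 0.31. Tfdp2, Tfdp1, Nfya, Lin9 and Lin54 rose by 1.48, 1.38, 0.92, 0.87 and 0.64. Rbl1, Rbbp4, E2f4, Nfyb and Nfyc did not pass.

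**Figure D5:**
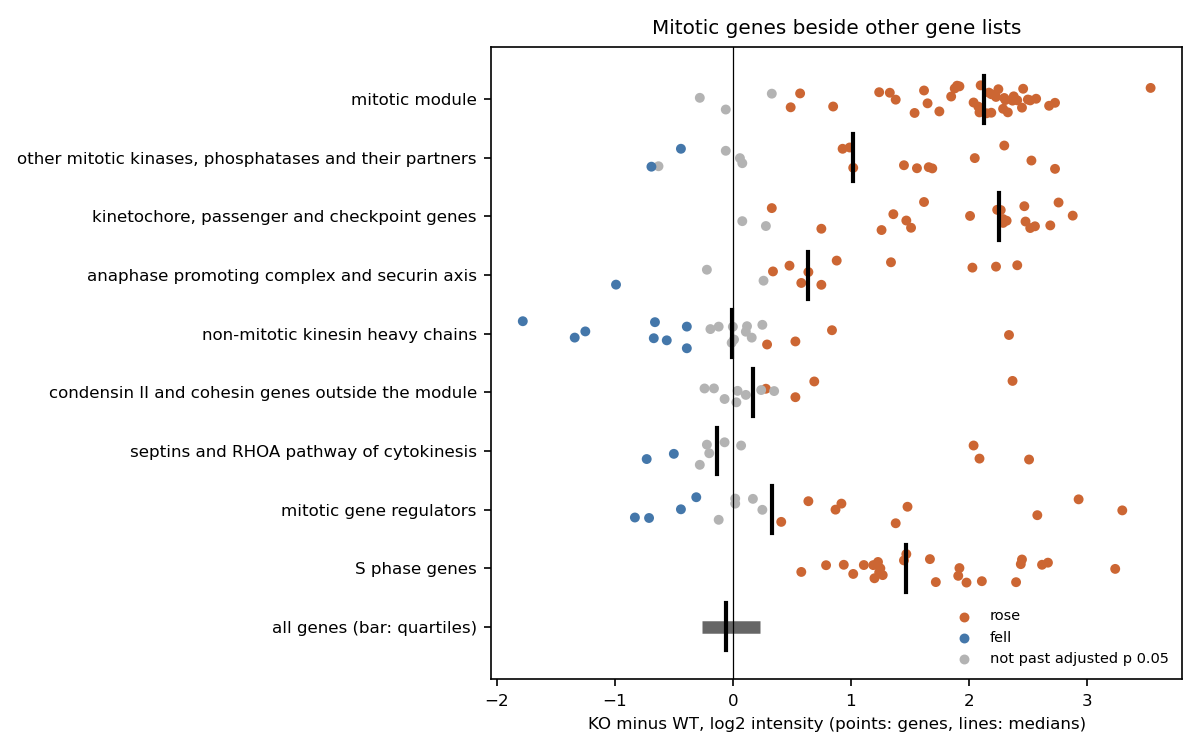
Differences between KO and WT (horizontal axis, log2 intensity) of each gene in the mitotic set and in 8 other lists, coloured by call, with list medians as black lines and the quartiles of all genes as a grey bar. The mitotic set (median 2.13), the kinetochore list (2.25) and the S phase list (1.47) lie to the right. The kinesins outside the set, labelled non-mitotic, centre at -0.01.

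The scaling of the arrays changed how many genes of the whole table were called higher. With arrays scaled by hybridization controls, bacterial transcripts added in fixed amounts, the median of all probe sets moved from -0.08 to 0.29, and 88.1% of the changed probe sets were higher in KO against 47.2% as deposited. The mitotic genes had a median of 2.49 under that scaling, 40 of them rose, and Kif15 and Smc4 stood at 0.09 and 0.31 without passing.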

How the data were processed

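RNA was amplified with oligo(dT) and random primers, per the labels' protocols. The log2 intensities were deposited after RMA by the authors, per the submitters' processing notes (version not given in the sources used here), and entered the fit unchanged, without detection calls. Of 45101 probe sets 64 were array controls. The remaining 45037 entered limma 3.58.1 (R 4.3.3; lmFit and eBayes with genotype as the term, all 6 arrays), with two-sided p-values adjusted by the Benjamini-Hochberg method over all 45037. The platform annotation gave 1 gene for 34945 probe sets and several for 932, and 9160 were not listed; 34741 matched the GRCm38.p6 gene table by Entrez ID. Replicates come from separate spleens per the labels, and the number of arrays limits the precision.

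The members and gene lists were chosen with earlier results of these data known, so no test was made of a list. In full, the 2 largest rises of each class and any fall past the threshold were described, with Mki67, Top2a and Cdk1 as textbook markers and up to 3 genes of each other list; exceptions are said to be chosen after their values were seen. The fit was tested on simulated data, and for the KO against WT comparison over 45037 probe sets recovered 8 of 67 shifts of 0.5, 43 of 67 of 1 and 62 of 66 of 2 log2 units. The shifted probe sets were few and drawn at random, dim ones included, whereas 29.4% of probe sets passed in the data. The adjusted threshold was therefore stricter in the simulation, and these shares do not give the sensitivity of the fit to the real arrays. Motifs were counted in RefSeq promoter windows (GRCm38.p6). Alternatives covered normalization, centring, scaling to 18 hybridization controls, a filter at the median level of 5.77, variance models, weights per array, a block for the replicate number, thresholds, left-out arrays and averaging all probe sets that a gene has. Further probe sets and ratios of members were chosen after seeing the data.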

Additional observations from a re-analysis of the deposited data

How the results depend on the processing

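Under 17 alternatives 37 to 40 of the mitotic genes rose and 0 fell, and 37 of the 42 rose in every one of them that tested the gene. Their median ranged from 1.96 to 2.24 when 1 array was left out. It was 2.49 after scaling to hybridization controls and 1.65 when all probe sets of a gene were averaged. That average takes in 22 further probe sets below the median of all values, of which 7 rose. It also takes in 33 at or above that median, of which 28 rose. Their parts in the lower median were not tested. The filter at the median level left 40 genes, of which 38 rose. A minimum change of 1.5-fold lowered the probe sets called from 13228 to 8307. Signs turned for genes that had not passed, Kif15 (0.09) and Smc4 (0.31), both under hybridization-control scaling. With the replicate number as a block, 10413 probe sets were called and 37 mitotic genes rose; Kif14 (limma adjusted p = 0.0814) and Racgap1 (0.0661) were lost. The labels do not pair these animals, and deviations of same-numbered arrays from their group means correlated at 0.10, -0.24 and -0.20. Of 628 recomputed single-gene differences 612 kept direction and side of the threshold, 12 lost the call (all Kif14 or Racgap1) and 2 gained it (both Cdc25b). Leaving out WT replicate 1 together with KO replicate 2 gave 37 rises and a median of 2.02. Kif14 and Kif15 lay below the median of all values on every array.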
